A study of Homo sapiens with 36 samples.

Results

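The dependence of the 16 h glucose deprivation response on ATF6 was taken as a difference of differences in A549 cells, an established human lung adenocarcinoma line. For each gene the response was the log2 change without glucose (0 mM) relative to 25 mM glucose, and the response of cells given siRNA against ATF6 (siATF6) had the response of cells given a non-targeting siRNA (siControl) subtracted from it. This comparison uses 12 of the 36 libraries of the series. The groups are siATF6 cells in 0 mM glucose for 16 h, siATF6 cells in 25 mM glucose for 16 h, siControl cells in 0 mM glucose for 16 h and siControl cells in 25 mM glucose for 16 h, with 3 biological replicates in each. All of them received 100 nM siRNA with the same reagent, and each transfected culture was split into wells before glucose was changed, in medium with dialysed serum and glutamine. The other libraries hold siATF4 cells and a 6 h time point. All cells come from 1 line, and the knockdown was transient and left some ATF6 mRNA.

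ATF6 is a transcription factor held in the membrane of the endoplasmic reticulum (ER). When unfolded proteins build up there it travels to the Golgi, is cut by the proteases MBTPS1 and MBTPS2, and its freed cytosolic part enters the nucleus, where it binds ER stress elements together with the CCAAT-binding factor NF-Y and turns on chaperones, folding enzymes and parts of ER-associated degradation. Parallel branches run from IRE1 (encoded by ERN1), which splices XBP1 mRNA, and from PERK (EIF2AK3), which leads to ATF4. Glucose supplies the sugar chains that many ER proteins carry, and its withdrawal is a classical way to induce the glucose-regulated proteins HSPA5 and HSP90B1.

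The 12 libraries held 41.0 to 58.1 M counts. The spread between cultures exceeded counting noise, with a mean chi-square per gene of at least 9.07 in each of 12 replicate pairs. Epithelial markers stood at 6040 to 8571 summed CPM of the unscaled library total in siATF6 cells without glucose, 7881 to 9405 in siATF6 cells with glucose, 6112 to 9896 in siControl cells without glucose and 8023 to 12031 in siControl cells with glucose, most of them from the keratins KRT7, KRT8 and KRT18, with EPCAM at 1.77 to 6.59 CPM over the 12 libraries. The 15 markers of leukocyte, endothelial, stromal, muscle and liver cells summed to 7.57 to 11.0 in siATF6 cells without glucose, 17.1 to 21.3 in siATF6 cells with glucose, 16.7 to 19.2 in siControl cells without glucose and 36.1 to 37.3 in siControl cells with glucose. COL1A1, CD14 and ACTA2 made up most of that sum, CD3E had no count in any of the 12 libraries and PTPRC at most 0.0423 CPM. The part of these markers in the results was not tested. Bulk RNA cannot tell fewer cells that express a gene from less RNA per cell. One siATF4 library, without glucose at 16 h, replicate 3, lay apart from the other 17 libraries of 16 h on the second principal component, at -101. It enters none of the subtractions but shares in the estimate of the spread, and counts are therefore also given without it.

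ATF6 mRNA, the target of the siRNA, stood at 20.2, 13.7 and 10.8 CPM without glucose and 10.1, 7.72 and 8.26 CPM with glucose in siATF6 cells, against 88.5, 88.4 and 90.2 CPM without glucose and 45.2, 44.6 and 43.9 CPM with glucose in siControl cells. CPM from here on are library-size normalised counts with TMM scaling. The siATF6 libraries lay below the siControl libraries without overlap, with a log2 difference of -2.58 without glucose (edgeR quasi-likelihood test with Benjamini-Hochberg adjustment, adjusted p = 4.85e-06) and of -2.36 with glucose (edgeR adjusted p = 1.79e-05). ATF6 rose with deprivation in both siRNAs, and its remaining mRNA in siATF6 cells without glucose was still below the level of siControl cells with glucose. The genes of the parallel branches were measured in both siRNAs. XBP1 responded by 1.80, 1.85 and 1.93 in the 3 siATF6 replicates and by 2.15, 1.92 and 1.90 in siControl (log2 CPM, 0 minus 25 mM), which overlap. ERN1 differed in response by 0.30 ± 0.413 (SE), ATF4 by -0.07 ± 0.198 and DDIT3, the proapoptotic factor CHOP, by -0.10 ± 0.280. Of 16 sensors and factors of the unfolded protein response, none had a difference in response at an unadjusted p under 0.05 (over all genes 1.72% on the lower and 0.566% on the higher side), and their median difference was -0.02, the same as over all genes tested.

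Deprivation moved a large part of the transcriptome in both siRNAs. In siATF6 cells 2811 genes rose (15.6% of 18013 tested) and 3222 fell (17.9%), against 2626 (14.6%) and 2603 (14.5%) in siControl cells, at an edgeR adjusted p under 0.05. Of these, 4477 passed in both in the same direction and 1 passed in opposite directions. Across genes, which are not independent replicates, the 2 responses had a Pearson correlation of 0.827, and they share no library. For the difference between the responses, 0 of 18013 genes (0%) passed an adjusted p under 0.05 in edgeR's quasi-likelihood test with the spread of all 18 libraries of 16 h, and the smallest adjusted p was 0.084. At an unadjusted p under 0.05 there were 310 genes with a lower (1.72%) and 102 with a higher response in siATF6 cells (0.566%), together 2.29%, where the threshold itself allows 5%. The median 95% interval of a gene reached 0.664 to either side on the log2 scale. Fitted on the 12 libraries alone, the same test passed 7 of 17640 genes, all with a lower response in siATF6 cells (0.0397%), and none with a higher one. These were CRELD2, DNAJB11, PDIA4, HSP90B1, STEAP3, SEPTIN5 and LRRC45. DESeq2 on the 18 libraries called 18 genes. The 17 with a lower response were STEAP3, DNAJB11, WARS1, CRELD2, CYP26A1, PDIA4, HOXC13, HSP90B1, TMEM50B, SEPTIN5, CRELD1, PIM2, LHX1, SLITRK5, SNN, FAM210B and DERL3, and the 1 with a higher response was HCAR2. Since the replicate numbers paired the libraries, the replicate number was also fitted as a block, which called 2 genes, STEAP3 and PDIA4. A block for each transfection called 0, with 557 genes at an unadjusted p under 0.05. Without the siATF4 library that lies apart, 6 genes passed, STEAP3, CRELD1, DNAJB11, LRRC45, SEPTIN5 and CRELD2, an alternative chosen after the data were seen. Leaving out siControl 0 mM replicate 1 passed STEAP3, and leaving out siControl 0 mM replicate 3 passed the pseudogene SLC7A5P2.

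**Figure D1:**
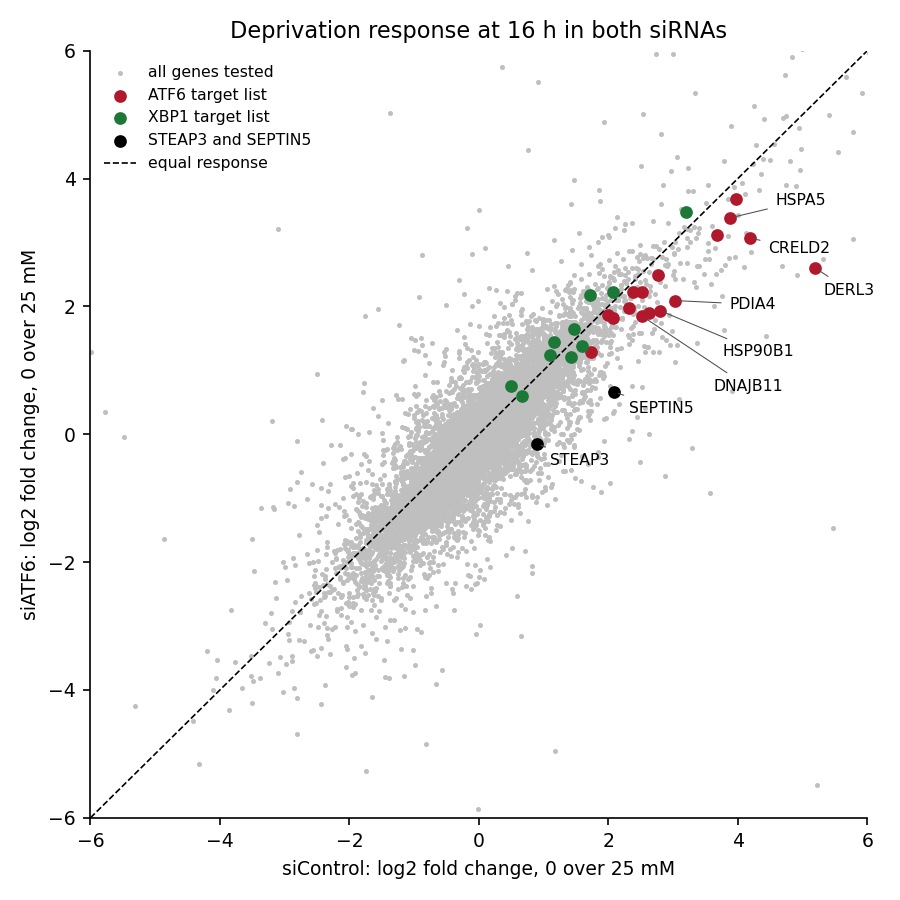
Log2 fold change with deprivation at 16 h in siATF6 cells (y axis) against siControl cells (x axis) for all genes tested; red points are the 16 ATF6 targets, green points the 10 XBP1 targets, black points STEAP3 and SEPTIN5, and the dashed line marks equal responses. All 16 red points lie below the line, 7 of the 10 green points lie above it, and 45 genes fall outside the axes, which end at 6.

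Known ATF6 targets rose in both siRNAs, and their log2 changes were smaller in siATF6 cells, although no difference passed the adjusted threshold in the 18-library fit. The list holds 16 genes written from general knowledge. It was chosen with earlier results of these data known, so its counts are no independent test. All 16 rose with deprivation in siATF6 cells (15.6% of all genes) and in siControl cells (14.6%) at an edgeR adjusted p under 0.05. All 16 had a difference in response below 0, where 54.4% of all genes did, with a median of -0.46 on the log2 scale beside -0.02 over all genes. In 14 of the 16 the 3 siATF6 responses lay below all 3 siControl responses (8.57% of all genes), and 8 had an unadjusted p under 0.05 on the lower side (1.72% of all genes). The differences ran from -2.59 for DERL3 to -0.14 for XBP1. The 10 XBP1 targets, which act in ER import, folding, transport and degradation, also rose in both siRNAs. Only 3 of them lay below 0, and their median was 0.16. SEC61A1 was the 1 member at an unadjusted p under 0.05, on the higher side (0.566% of all genes).

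**Figure D2:**
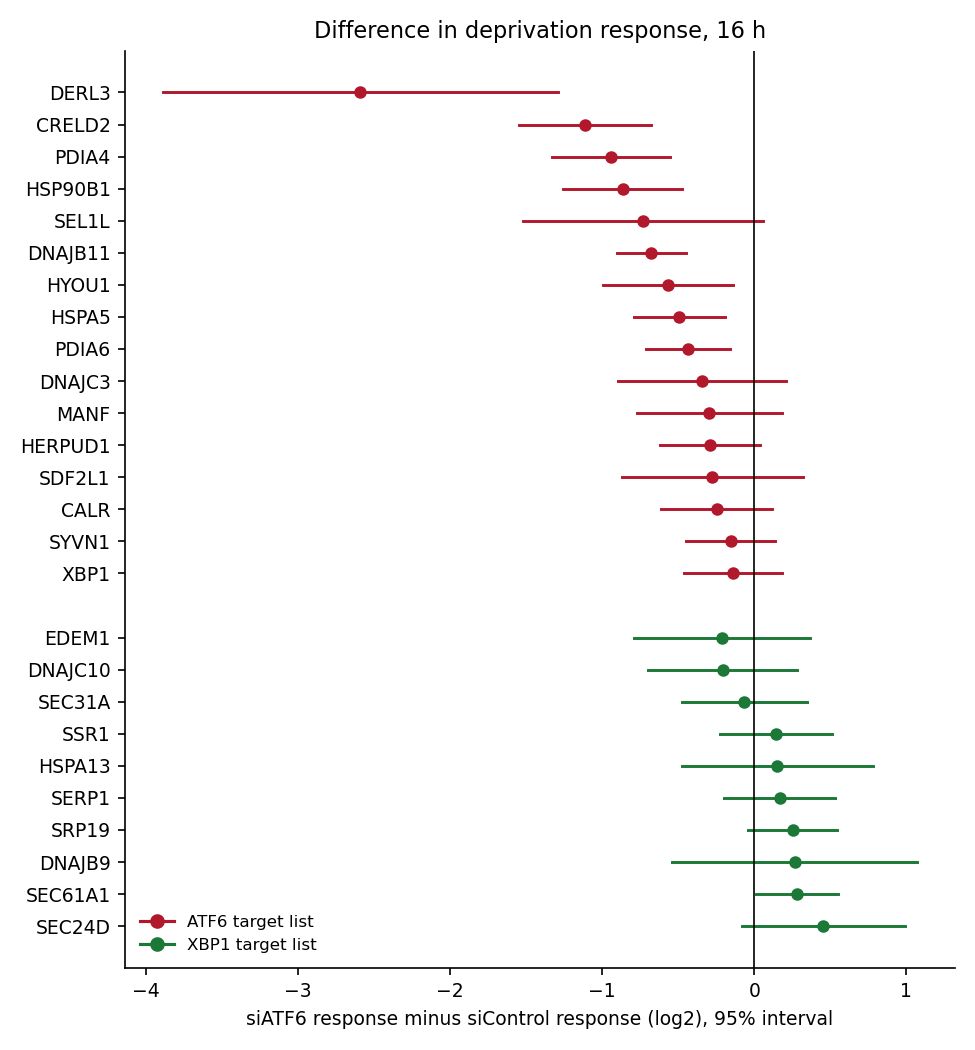
Difference in deprivation response at 16 h, siATF6 minus siControl, on the log2 scale, as point and 95% interval from the 18-library edgeR fit, for the 16 ATF6 targets (red) and the 10 XBP1 targets (green). The intervals of DERL3, CRELD2, PDIA4, HSP90B1, DNAJB11, HYOU1, HSPA5 and PDIA6 lie below 0, and that of SEC61A1 lies above 0.

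Promoters of several targets hold an element through which ATF6 is known to act. The ER stress element (ERSE) was searched as CCAAT and CCACG with 9 bases of any kind between them, and ERSE-II as ATTGG and CCACG with 1 base of any kind between them, on both strands, in RefSeq windows that run from 250 bases before to 50 bases after each start site (GRCh38.p14). The letters that are fixed in the motif are in capitals, and a match on the opposite strand reads as its reverse complement. HSP90B1, CRELD2 and HSPA5 are shown as examples with ERSE, and HYOU1 and HERPUD1 as examples with ERSE-II. The targets CALR, PDIA6 and XBP1 also carry ERSE and SDF2L1 carries ERSE-II. Their differences in response were -0.25, -0.44, -0.14 and -0.28. The windows are chr12:103930160-103930459 on the plus strand for HSP90B1, chr22:49918384-49918683 on the plus strand for CRELD2, chr9:125241294-125241593 on the minus strand for HSPA5, chr11:119057156-119057455 on the minus strand for HYOU1 and chr16:56931892-56932191 on the plus strand for HERPUD1.
HSP90B1: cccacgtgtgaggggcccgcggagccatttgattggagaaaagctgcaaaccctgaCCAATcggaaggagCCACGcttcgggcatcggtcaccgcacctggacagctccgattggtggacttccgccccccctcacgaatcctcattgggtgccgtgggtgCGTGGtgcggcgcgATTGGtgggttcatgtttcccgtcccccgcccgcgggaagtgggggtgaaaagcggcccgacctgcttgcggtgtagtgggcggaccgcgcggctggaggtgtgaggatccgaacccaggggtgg
CRELD2: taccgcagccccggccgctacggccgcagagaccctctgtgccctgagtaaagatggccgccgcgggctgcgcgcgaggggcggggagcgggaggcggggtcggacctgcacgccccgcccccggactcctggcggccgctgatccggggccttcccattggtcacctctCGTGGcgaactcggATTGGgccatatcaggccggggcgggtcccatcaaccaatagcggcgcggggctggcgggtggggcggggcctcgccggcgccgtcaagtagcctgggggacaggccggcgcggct
HSPA5: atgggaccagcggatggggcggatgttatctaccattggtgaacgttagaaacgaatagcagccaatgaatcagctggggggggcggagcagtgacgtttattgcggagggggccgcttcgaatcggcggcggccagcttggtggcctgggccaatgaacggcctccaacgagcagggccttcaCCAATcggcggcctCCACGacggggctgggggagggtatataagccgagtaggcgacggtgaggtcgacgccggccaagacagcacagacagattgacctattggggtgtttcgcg
HYOU1: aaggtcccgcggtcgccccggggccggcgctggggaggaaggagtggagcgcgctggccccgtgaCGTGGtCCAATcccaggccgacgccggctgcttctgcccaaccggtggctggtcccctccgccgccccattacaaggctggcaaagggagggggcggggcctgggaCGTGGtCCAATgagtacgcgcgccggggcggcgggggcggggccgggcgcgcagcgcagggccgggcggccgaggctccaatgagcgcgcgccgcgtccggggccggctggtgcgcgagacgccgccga
HERPUD1: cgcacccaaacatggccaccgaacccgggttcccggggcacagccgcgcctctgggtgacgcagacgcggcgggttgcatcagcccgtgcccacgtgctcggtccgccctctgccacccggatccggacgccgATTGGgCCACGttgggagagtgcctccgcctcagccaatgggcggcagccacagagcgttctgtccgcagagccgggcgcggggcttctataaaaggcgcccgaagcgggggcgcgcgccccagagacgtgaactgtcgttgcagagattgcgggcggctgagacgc
The HSP90B1 window holds 2 matches to ERSE and the HYOU1 window 2 matches to ERSE-II, and the others hold 1 match each. Of 35116 windows, 0.0769% hold ERSE and 0.0541% ERSE-II. Of 15 ATF6 targets with a window, 9 hold one of them, and since the elements were first described on some of these genes this is no independent observation. The 9 include XBP1 but not DNAJB11, PDIA4, DERL3 or SEL1L. The 32 tested genes with ERSE or ERSE-II had a median difference of -0.17, with 26 below 0 (54.4% of all genes). Among them, the 23 outside the ATF6 target list had a median of -0.15, with 17 below 0. The highest of these was FICD, at 0.65. TGACGTGG, the core of an element known for both ATF6 and XBP1, is in 0.729% of windows and in 1 of the 15 targets, HYOU1. The 139 tested genes with it had a median difference of 0.02.

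In the luminal HSP70 and HSP90 machinery, DNAJB11, CRELD2 and HSP90B1 had more negative differences than BiP, though differences between genes were not tested. DNAJB11 (ENSG00000090520.11, chromosome 3), the HSP40 partner that hands clients to BiP, stood at 188, 190 and 184 CPM without glucose and 54.3, 50.5 and 51.3 CPM with glucose in siATF6 cells, against 308, 321 and 322 CPM without glucose and 54.3, 56.1 and 55.0 CPM with glucose in siControl cells. The groups without glucose do not overlap, whereas those with glucose lie close to each other. Its response differed by -0.68 ± 0.106 (SE), with a 95% interval of -0.90 to -0.45 and an edgeR adjusted p of 0.093. On the 12 libraries the difference was -0.64 (edgeR adjusted p = 0.0184). Some 23.2% of its exon bases overlap other genes, and the reads carry no strand.

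CRELD2 (ENSG00000184164.14, chromosome 22), a secreted ER protein of the CRELD family, stood at 179, 173 and 152 CPM without glucose and 22.3, 18.4 and 19.3 CPM with glucose in siATF6 cells, against 425, 435 and 456 CPM without glucose and 25.1, 23.4 and 24.0 CPM with glucose in siControl cells. It rose in both siRNAs, and the libraries of siATF6 cells without glucose reached less than those of siControl cells, with no overlap. The responses of the 3 replicates were 3.00, 3.22 and 2.98 in siATF6 cells and 4.08, 4.21 and 4.24 in siControl cells. The difference was -1.11 ± 0.204 in the 18 libraries (edgeR adjusted p = 0.347) and -1.07 in the 12 libraries (edgeR adjusted p = 0.0184). CRELD1, its membrane-anchored relative, differed by -0.94 ± 0.194, with responses of 1.87, 1.95 and 1.53 in siATF6 cells and 2.53, 2.79 and 2.84 in siControl cells.

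HSP90B1 (ENSG00000166598.15, chromosome 12), the ER member of the HSP90 family also called GRP94, stood at 2365, 2393 and 2219 CPM without glucose and 679, 579 and 567 CPM with glucose in siATF6 cells, against 4443, 4487 and 4113 CPM without glucose and 668, 596 and 610 CPM with glucose in siControl cells. The rise was 3.82-fold in siATF6 cells and 6.96-fold in siControl cells. Its difference in response was -0.86 ± 0.184, and -0.82 on the 12 libraries (edgeR adjusted p = 0.0295). HSPA5 (ENSG00000044574.8, chromosome 9), the HSP70 chaperone BiP, stood at 7611, 7354 and 7033 CPM without glucose and 736, 692 and 680 CPM with glucose in siATF6 cells, against 10550, 10340 and 9689 CPM without glucose and 703, 696 and 684 CPM with glucose in siControl cells. Its 3 siATF6 responses of 3.37, 3.41 and 3.37 lay below the siControl responses of 3.91, 3.89 and 3.83, and the difference was -0.49 ± 0.141 with an interval of -0.79 to -0.19 (edgeR, unadjusted p = 0.00305, adjusted p = 1.00). BiP rose 10.4-fold in siATF6 cells, against 14.7-fold in siControl cells. HYOU1, the nucleotide exchange factor of BiP, differed by -0.57 ± 0.202.

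Of the 17 chaperones and co-chaperones tested, 12 had a difference below 0 (54.4% of all genes), with a median of -0.28, and 6 an unadjusted p under 0.05 on the lower side (1.72%) against 0 on the higher side (0.566%). The 5 members above 0 were CDNF, HSPA13, SDF2, DNAJC1 and DNAJB9, up to 0.27 for DNAJB9, a co-chaperone known as a target of XBP1. MANF, a secreted factor of the ER, differed by -0.30 ± 0.225 and DNAJC3, an inhibitor of PERK and co-chaperone of BiP, by -0.35 ± 0.260. Their intervals include 0. This list shares CRELD2, DNAJB11, HSP90B1, HSPA5, HYOU1 and other members with the ATF6 targets. The lists of isomerases, lectin chaperones and ER-associated degradation share members with those targets too, so the counts are not separate.

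**Figure D3:**
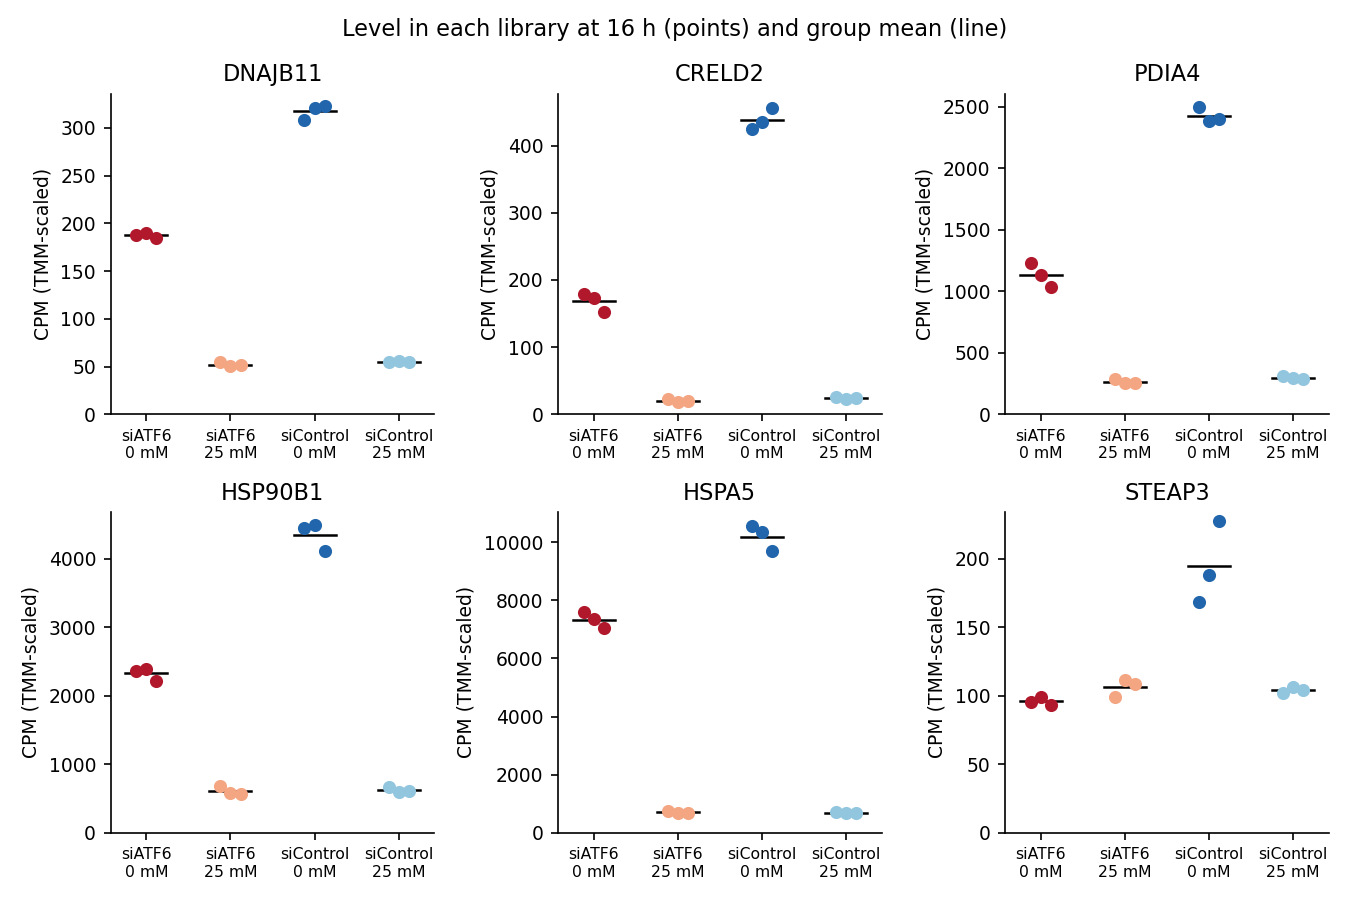
TMM-scaled CPM in each library at 16 h (points) with the group mean (line) for DNAJB11, CRELD2, PDIA4, HSP90B1, HSPA5 and STEAP3, in siATF6 cells in 0 and 25 mM glucose and siControl cells in 0 and 25 mM glucose, from left to right. For every gene shown the 3 siATF6 libraries without glucose lie below the 3 siControl libraries without glucose, while the libraries with glucose lie close together.

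Among protein disulfide isomerases, which form and reshuffle disulfide bonds, PDIA4 had the most negative difference of the list. PDIA4 (ENSG00000155660.11, chromosome 7) stood at 1231, 1134 and 1034 CPM without glucose and 288, 257 and 252 CPM with glucose in siATF6 cells, against 2495, 2383 and 2399 CPM without glucose and 309, 296 and 283 CPM with glucose in siControl cells. The 2 groups without glucose do not overlap. Its response differed by -0.94 ± 0.182 in the 18 libraries, by -0.90 in the 12 libraries (edgeR adjusted p = 0.0184) and by -0.95 with the replicate number as a block (edgeR adjusted p = 0.0496). PDIA6, PDIA3 and the thiol retention factor ERP44 followed with -0.44 ± 0.130, -0.38 ± 0.164 and -0.33 ± 0.157, each at an unadjusted p under 0.05 (1.72% of all genes on the lower side). Some 25.2% of the exon bases of PDIA6 and 18.9% of those of PDIA3 overlap other genes. In all, 13 of 19 isomerases and oxidases had a difference below 0 (54.4% of all genes), with a median of -0.12, and P4HB, the founding isomerase, lay at -0.18.

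Lectin chaperones and glycan checkpoints follow the isomerases in glycoprotein folding. Of 16 tested, 10 lay below 0 (54.4% of all genes), with a median of -0.12. OS9, which reads trimmed glycans and delivers misfolded glycoproteins to degradation, differed by -0.42 ± 0.138. It was the 1 gene at an unadjusted p under 0.05 (1.72% of all genes on the lower side). CALR and CANX, the calreticulin and calnexin chaperones, lay at -0.25 and -0.25, and EDEM2, a mannosidase of the degradation pathway, at 0.43. In ER-associated degradation the median over 21 genes was -0.03, with 13 below 0, a share near that of all genes. SEL1L, the scaffold of the HRD1 ligase, stood at 420, 362 and 332 CPM without glucose and 93.7, 102 and 105 CPM with glucose in siATF6 cells, against 756, 754 and 794 CPM without glucose and 136, 117 and 120 CPM with glucose in siControl cells. Its libraries do not overlap in either medium, and its difference in response of -0.73 ± 0.371 has an interval that reaches 0.05. The ligase SYVN1 differed by -0.16 and HERPUD1, which organises the complex, by -0.29 ± 0.156. DERL3, a derlin of the ER membrane with few counts, stood at 1.70, 1.88 and 0.722 CPM without glucose and 0.373, 0.153 and 0.179 CPM with glucose in siATF6 cells, against 5.37, 5.66 and 5.54 CPM without glucose and 0.138, 0.130 and 0.179 CPM with glucose in siControl cells. It had the most negative difference of the list, -2.59 ± 0.611, but the smallest group held 21 counts over 3 libraries, and 77.0% of its exon bases overlap SMARCB1 on the other strand.

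Split by medium, some of the ATF6 targets were lower in siATF6 cells without glucose. The same 12 libraries can be split the other way, so these values share their libraries with the differences above. Without glucose 8 of the 16 targets were lower in siATF6 than in siControl cells at an edgeR adjusted p under 0.05 (2.91% of all genes lower, 1.11% higher), with a median of -0.48. They were DERL3, CRELD2, PDIA4, SEL1L, HSP90B1, DNAJB11, HSPA5 and PDIA6. With glucose 0 of 16 passed (0.561% of all genes lower, 0.189% higher) and the median was -0.03. XBP1 and SYVN1 lay at 0.12 and 0.05 without glucose.

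**Figure D4:**
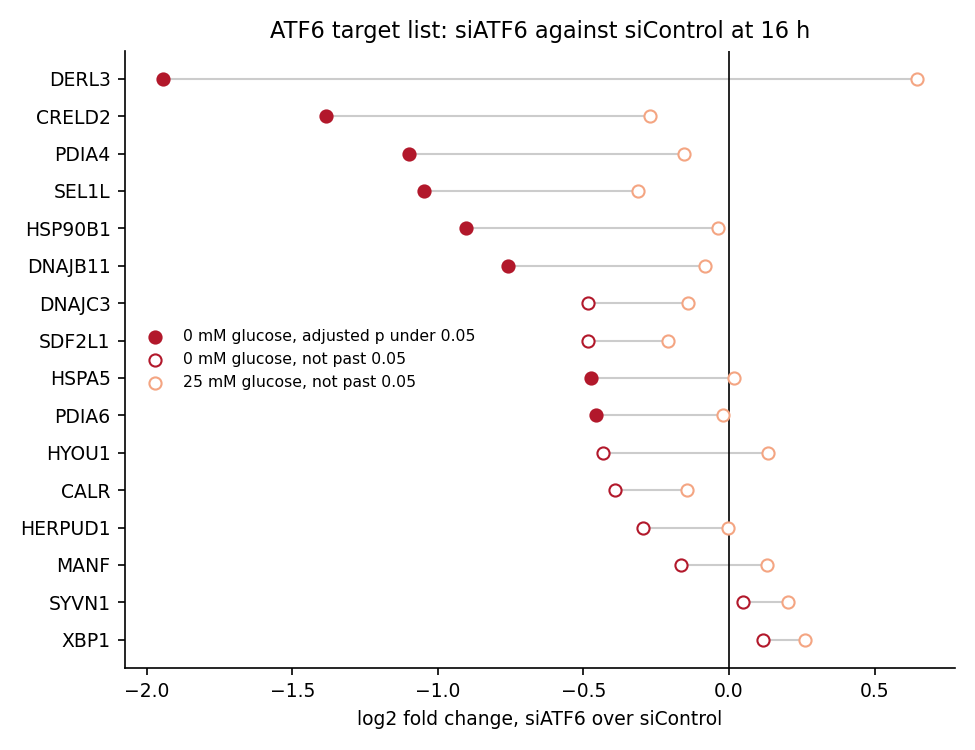
Log2 fold change of siATF6 over siControl at 16 h for the 16 ATF6 targets, in 0 mM glucose (dark) and 25 mM glucose (light), where filled points have an edgeR adjusted p under 0.05. In 0 mM glucose 8 points are filled and 14 lie below 0, and in 25 mM glucose no point is filled.

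Genes of import into the ER and of vesicle transport lay mostly above 0, as did genes raised by deprivation in siATF4 cells. Those 784 genes, raised at 16 h by at least 1 on the log2 scale (edgeR adjusted p under 0.05), had a median of 0.07. Of them 42.2% lay below 0. Whether the import and transport genes differ from them was not tested. Of 32 genes of translocation, signal peptidase and oligosaccharyltransferase, 22 lay above 0 and 10 below (54.4% of all genes lay below), with a median of 0.07, and 4 had an unadjusted p under 0.05 on the higher side (0.566% of all genes), SEC61A1, SRP54, SRP68 and SRPRA. These encode the translocation channel, 2 proteins of the signal recognition particle and the receptor of that particle. SRP68 stood at 222, 264 and 276 CPM without glucose and 167, 172 and 168 CPM with glucose in siATF6 cells, against 161, 164 and 158 CPM without glucose and 134, 141 and 134 CPM with glucose in siControl cells. The siATF6 libraries were above the siControl libraries in both media, and the response differed by 0.35 ± 0.132. The 1 member at such a p on the lower side (1.72%) was MAGT1, a subunit of one oligosaccharyltransferase, at -0.66 ± 0.286. Of 26 COPII and COPI genes 21 lay above 0, with a median of 0.13, and in 10 all siATF6 responses lay above all siControl responses (5.54% of all genes). None had an unadjusted p under 0.05. SEC24D, a cargo adaptor of COPII and an XBP1 target, had responses of 2.13, 2.25 and 2.15 in siATF6 cells and 1.75, 1.66 and 1.75 in siControl cells, which do not overlap, and differed by 0.46 ± 0.252.

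Some of the genes with the smallest p on the lower side, or called in the 12 libraries, lay outside the ER folding lists. STEAP3 (ENSG00000115107.20, chromosome 2), a ferrireductase of endosomes that takes part in iron uptake, stood at 95.3, 99.4 and 93.0 CPM without glucose and 99.0, 112 and 109 CPM with glucose in siATF6 cells, against 169, 188 and 227 CPM without glucose and 102, 107 and 104 CPM with glucose in siControl cells. It rose with deprivation in siControl cells by 0.90 (edgeR adjusted p = 1.58e-05), and its change in siATF6 cells was -0.15 (edgeR adjusted p = 0.319). The difference of -1.05 ± 0.154 had the smallest p of all genes (edgeR, unadjusted p = 4.66e-06, adjusted p = 0.084), and it passed in the 12 libraries at -1.01 (edgeR adjusted p = 0.0295) and with the replicate block at -1.04 (edgeR adjusted p = 0.0185). The 3 siATF4 responses of STEAP3 were 0.79, 0.78 and 0.76, the last of them from the library that lies apart, and they lay within the range of the siControl responses of 0.73, 0.82 and 1.13.

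SEPTIN5 (ENSG00000184702.20, chromosome 22), a filament-forming GTPase, stood at 18.4, 19.4 and 19.6 CPM without glucose and 10.0, 13.1 and 13.2 CPM with glucose in siATF6 cells, against 44.5, 46.9 and 56.9 CPM without glucose and 9.80, 12.9 and 12.1 CPM with glucose in siControl cells. Its level with glucose overlaps between the siRNAs, and its difference in response was -1.43 ± 0.303, or -1.39 on the 12 libraries (edgeR adjusted p = 0.0295). Some 73.0% of its exon bases are shared with GP1BB and a readthrough gene on the same strand, so counts cannot be told apart between them. LRRC45 (ENSG00000169683.8, chromosome 17), a centrosomal linker protein, fell by 1.69 in siATF6 cells (edgeR adjusted p = 1.32e-05), and its change in siControl cells was -0.51 (edgeR adjusted p = 0.0668). HOXC13, a homeobox factor, had responses of -0.63, -0.77 and -0.73 in siATF6 cells and 0.04, 0.17 and 0.29 in siControl cells, opposite in sign. Its change in siControl cells was 0.17 (edgeR adjusted p = 0.368). With glucose it stood at 14.5, 14.2 and 12.5 CPM in siATF6 cells and 10.3, 10.8 and 9.65 CPM in siControl cells.

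On the higher side the genes with the smallest p were FAM167A, ALG2, MBD1, SFPQ, HID1, MGAT2, GOSR2 and CDC20P1, and no setting called any of them. FAM167A stood at 21.5, 15.2 and 13.1 CPM without glucose and 9.94, 8.00 and 8.71 CPM with glucose in siATF6 cells, against 16.1, 15.1 and 14.2 CPM without glucose and 15.2, 16.1 and 17.6 CPM with glucose in siControl cells, so that its libraries differ between the siRNAs with glucose and come close to each other without it. Its difference was 1.01 ± 0.262. ALG2, a mannosyltransferase that builds the lipid-linked precursor of N-glycans, responded by 1.02, 1.15 and 1.23 in siATF6 cells and 0.63, 0.58 and 0.52 in siControl cells, a difference of 0.56 ± 0.148. MGAT2, a Golgi enzyme of N-glycan branching, differed by 0.66 ± 0.203, though 91.9% of its exon bases overlap an unnamed gene on the other strand. HID1, a Golgi-associated protein, and GOSR2, a Golgi SNARE, differed by 0.71 ± 0.207 and 0.50 ± 0.156. JUN, a subunit of AP-1, stood at 224, 151 and 163 CPM without glucose and 62.0, 50.8 and 55.9 CPM with glucose in siATF6 cells, against 212, 107 and 129 CPM without glucose and 94.2, 74.0 and 85.8 CPM with glucose in siControl cells. Its siATF6 responses of 1.85, 1.57 and 1.54 lie above the siControl responses of 1.17, 0.53 and 0.58, with a difference of 0.86 ± 0.309.

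The 4 lists of the ATF4 branch had medians from -0.08 to 0.11, beside -0.02 over all genes. Of 19 stress regulators downstream of ATF4, 18 rose in siATF6 cells (15.6% of all genes) and 18 in siControl cells (14.6%). Their median difference was 0.11, with 14 above 0 and 5 below (54.4% of all genes lay below). None had an unadjusted p under 0.05. The medians were -0.08 over 14 enzymes that make amino acids or carry one-carbon units, 0.01 over 20 aminoacyl-tRNA synthetases and -0.05 over 10 amino acid transporters. Of the stress regulators, DDIT4 and SESN2 had the smallest p and were higher in response, by 0.42 ± 0.227 and 0.58 ± 0.328. In each of the other lists the member with the smallest p was lower in response. WARS1, the tryptophanyl-tRNA synthetase, stood at 531, 524 and 501 CPM without glucose and 141, 156 and 149 CPM with glucose in siATF6 cells, against 623, 628 and 610 CPM without glucose and 133, 138 and 130 CPM with glucose in siControl cells, with a difference of -0.41 ± 0.104. SLC1A4, a neutral amino acid transporter, had responses of 1.41, 1.28 and 1.19 in siATF6 cells and 1.86, 1.64 and 1.95 in siControl cells, and SLC6A9, a glycine transporter, differed by -0.40 ± 0.158.

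Among the other lists, the lipid genes lay to one side, and so did most genes lowered by deprivation in siATF4 cells. Of those 921 genes, lowered at 16 h by at least 1 on the log2 scale (edgeR adjusted p under 0.05), 69.5% lay below 0. Their median was -0.19. Whether the lipid genes differ from them was not tested. All 21 genes of cholesterol and fatty acid synthesis had a difference below 0 (54.4% of all genes), with a median of -0.25, and in 9 the siATF6 responses were all below those of siControl (8.57% of all genes). Of these genes 10 fell with deprivation in siATF6 cells (17.9% of all genes) and 4 in siControl cells (14.5%), both without a test of the counts against each other. FADS2, a fatty acid desaturase, was the 1 member at an unadjusted p under 0.05 (1.72% of all genes on the lower side), with -0.45 ± 0.155. FADS2 stood at 162, 171 and 165 CPM without glucose and 516, 439 and 417 CPM with glucose in siATF6 cells, against 242, 250 and 264 CPM without glucose and 556, 512 and 460 CPM with glucose in siControl cells. The mitotic list was shifted the other way, with 1 of 23 below 0 (54.4% of all genes) and a median of 0.19, at no unadjusted p under 0.05, while the S phase list had a median of 0.01. The 19 NF-kB genes and cytokines had a median of 0.30, with 3 below 0 and none at an unadjusted p under 0.05. Of them 3 rose with deprivation in siATF6 cells (15.6% of all genes) and 1 in siControl cells (14.6%) at an edgeR adjusted p under 0.05. The 17 immediate early genes had a median of 0.23, with 4 below 0. An unadjusted p under 0.05 was reached by 1 of them on the lower side (1.72% of all genes) and 1 on the higher side (0.566%).

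Of 14 cytosolic heat shock genes 13 lay below 0 (54.4% of all genes), with a median of -0.30 and no unadjusted p under 0.05, and 4 members named here changed sign without 1 library. DNAJA1 stood at 391, 154 and 155 CPM without glucose and 462, 404 and 401 CPM with glucose in siATF6 cells, against 482, 138 and 182 CPM without glucose and 385, 363 and 356 CPM with glucose in siControl cells, so that replicate 1 without glucose is far above replicates 2 and 3 in both siRNAs. Leaving out siControl 0 mM replicate 1 turned the difference from -0.39 to 0.35 for DNAJA1, from -0.33 to 0.08 for HSPA8, from -0.28 to 0.07 for CHORDC1 and from -0.17 to 0.01 for HSP90AB1. The 22 genes of glycolysis and the hexosamine pathway had a median of 0.02, the 14 p53 targets -0.07, the 20 lysosome and autophagy genes -0.08, the 20 death receptor and BCL2 family genes 0.05 and the 20 matrix and integrin genes 0.00. The 6 MondoA genes had a median of -0.29, with TXNIP at -2.00 ± 1.10 from a smallest group of 10 counts. The 8 epithelial markers had a median of 0.04 and the 7 tested markers of other cell types -0.09. Of these CD14, a monocyte marker, differed by -1.09 ± 0.409 (edgeR, unadjusted p = 0.017), with all 3 siATF6 responses below those of siControl, and its part in the results was not tested.

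**Figure D5:**
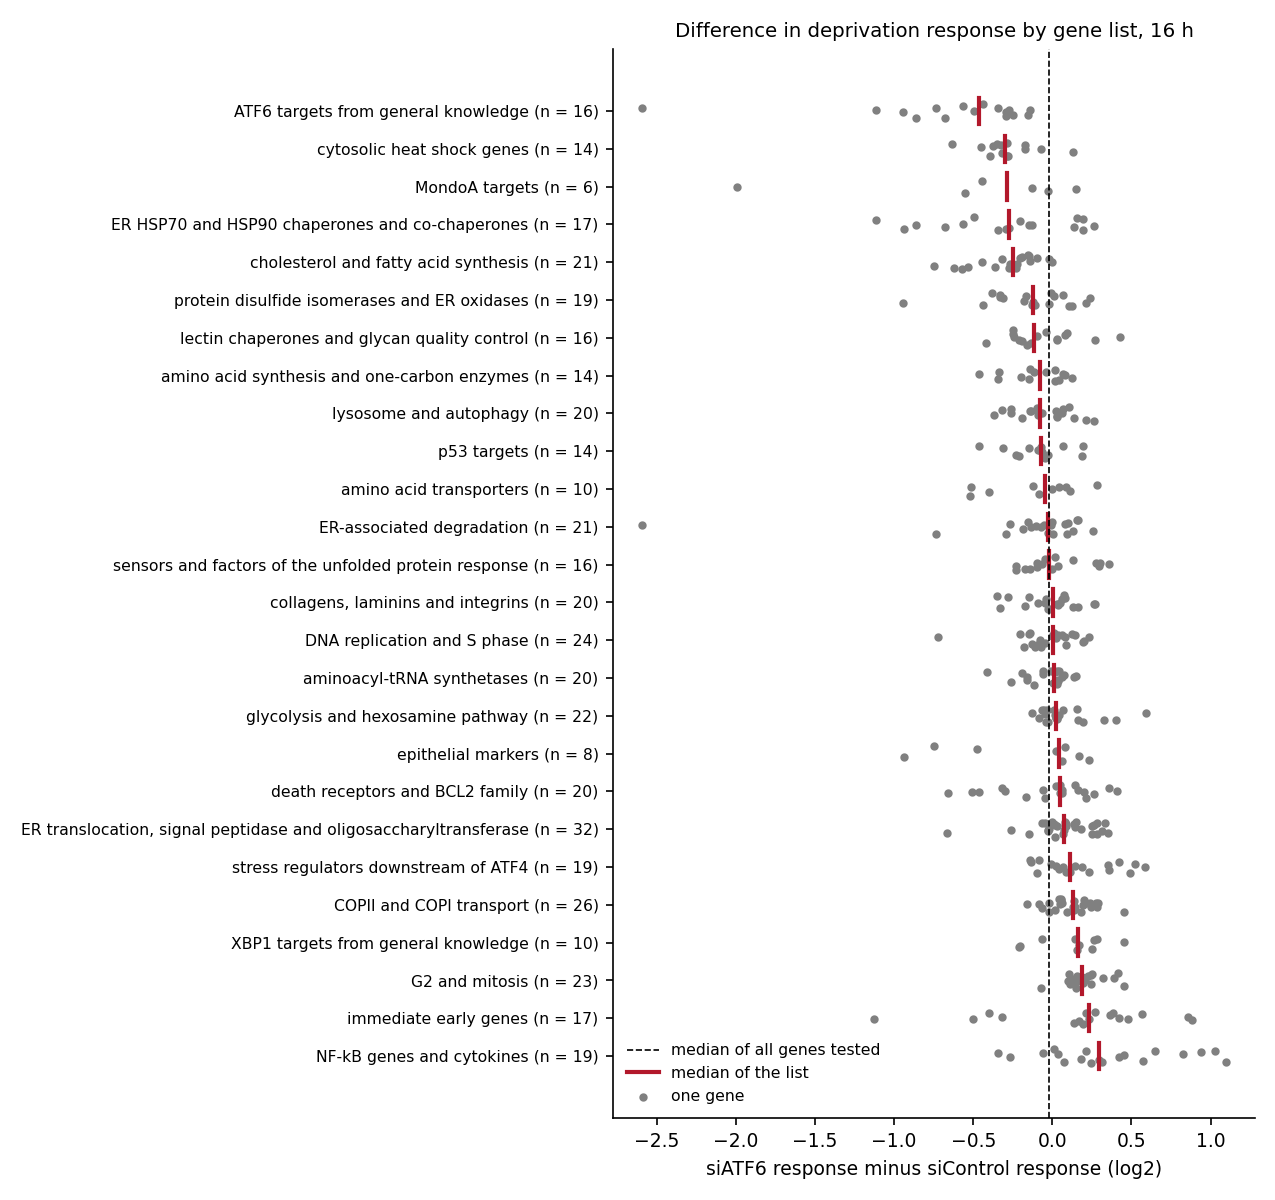
Difference in deprivation response at 16 h, siATF6 minus siControl, on the log2 scale, for each gene (grey points) of 26 lists; red bars are list medians and the dashed line is the median of all genes tested, -0.02. The ATF6 targets have the lowest median, -0.46, and the NF-kB genes and cytokines the highest, 0.30.

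The 6 h libraries hold the same subtraction in samples not used above, and are given as values with no test. The 6 h libraries labelled replicate 2 moved against their glucose labels in both siRNAs. Whether the glucose labels of these libraries are exchanged was not tested, and the sign of their values is therefore uncertain. HSPA5 differed in value by 1.77, -1.49 and 1.62 in siATF6 replicates 1, 2 and 3 and by 2.43, -2.30 and 2.50 in siControl. DNAJB11 gave 1.22, -0.93 and 1.14 in siATF6 cells and 1.80, -1.56 and 1.86 in siControl cells, and CRELD2 gave 1.93, -1.28 and 2.12 in siATF6 cells and 3.18, -2.43 and 3.04 in siControl cells. In replicates 1 and 3 the siATF6 value of these 3 genes was the smaller one, and in the libraries labelled replicate 2 it was the one nearer to 0. STEAP3 gave 0.23, -0.0047 and -0.02 in siATF6 cells and 0.74, -0.71 and 0.46 in siControl cells. LRRC45 gave -0.09, 0.58 and 0.13 in siATF6 cells and 0.66, 9.7e-05 and 0.26 in siControl cells. HOXC13 gave 0.25, 0.36 and 0.09 in siATF6 cells and 0.13, 0.12 and 0.15 in siControl cells. Its siATF6 value was thus the larger one in replicate 1 and the smaller one in replicate 3, and its opposite signs of 16 h were not seen.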

How the data were processed

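Poly(A) RNA of A549 cells was sequenced without strand as pairs of 150 bases, per the labels' protocols. The deposited table holds expected counts that the authors estimated per gene with RSEM for 60662 IDs, after fastp and STAR on GRCh38 per the submitters' processing notes, which name no versions. Which gene annotation was counted is not given here. Values were rounded to integers first, and 0 columns of the table were left unused. Columns were matched to libraries by the column names in the labels.

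The 18 libraries of 16 h entered edgeR 4.0.16 (R 4.3.3). Low genes were removed by filterByExpr, at a minimum count of 10 and a minimum total of 15, libraries were scaled by TMM, and robust quasi-likelihood models with 1 mean per group were fitted, with Benjamini-Hochberg adjustment over 18013 genes at 0.05. SEs and 95% intervals come from the F statistics. Responses per replicate are differences in log2 CPM with a prior count of 2. The pipeline was tested on simulated data. Gene overlap was read from GENCODE release 29, and all 120 named genes matched. Promoters are RefSeq windows on GRCh38.p14.

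Named genes are 6 fixed ones (ATF6, ATF4, XBP1, ERN1, HSPA5, DDIT3), the 8 genes per direction with the smallest p of the difference and at least 5 CPM in 1 of the 4 groups, up to 4 members of each list (8 for ER chaperones and ATF6 targets) and the genes that passed in the 12 libraries or with the replicate block. Members and lists were chosen with earlier results of these data known. Same-numbered libraries deviated together in all 18 pairs of libraries that were checked, in 6 pairs of groups, with correlations of 0.137 to 0.602, so the replicate numbers pair the samples. The replicates are cultures of 1 line, and p-values measure the spread between them. Alternatives were DESeq2 1.42.0, other size factors, no filter, other sets of libraries, blocks and each library left out.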

Additional observations from a re-analysis of the deposited data

Results flagged for a closer look

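For 7 genes the responses of siATF6 and siControl cells differed in edgeR's quasi-likelihood test on the 12 libraries compared, with Benjamini-Hochberg adjustment. The differences, siATF6 minus siControl, were -1.07 for CRELD2, -0.636 for DNAJB11 and -0.903 for PDIA4 (adjusted p = 0.0184 in edgeR for each), and -1.01 for STEAP3, -0.824 for HSP90B1, -1.39 for SEPTIN5 and -1.14 for LRRC45 (adjusted p = 0.0295 in edgeR for each). With the replicate number as a block in the 18 libraries, STEAP3 differed by -1.04 (edgeR adjusted p = 0.0185) and PDIA4 by -0.946 (edgeR adjusted p = 0.0496). In each of the 7 genes all 3 siATF6 responses lay below all 3 siControl responses (8.57% of all genes). The 7 genes were called on these same libraries, so this is no separate support.

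For HOXC13 and STEAP3 all 3 siATF6 replicates had a negative response and all 3 siControl replicates a positive one, with differences of -0.876 and -1.05, and this opposition of signs was not itself tested. The change of HOXC13 in siControl cells was 0.168 (edgeR adjusted p = 0.368). That of STEAP3 in siATF6 cells was -0.150 (edgeR adjusted p = 0.319).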

How the results depend on the processing

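Genes that passed for the difference in response numbered 0 in the 18-library edgeR fit (412 at an unadjusted p under 0.05), 18 with DESeq2, 7 in the 12 libraries, 2 with the replicate block (805 at an unadjusted p under 0.05), 6 in 17 libraries and 0 to 1 with a library left out. They numbered 0 with the other size factors, without the filter, in 36 and in 35 libraries and with the transfection block. The cause of these changes was not tested. Genes called for deprivation with all 36 libraries were 831 in siATF6 cells, against 6033 in the 18, and 531 in siControl cells, against 5229. Without the siATF4 0 mM 6 h replicate 3 library, which holds 2.87 M counts, the other 35 gave 6296 and 5375, and the 12 libraries gave 8135 and 7419. With a library left out they were 4797 to 6087 and 3869 to 5316. Among the differences of the 120 named genes the replicate block changed no call besides STEAP3 and PDIA4. The median difference of the ATF6 targets (-0.46) was -0.44 with DESeq2 and with median-of-ratios factors, -0.42 in the 12 libraries, -0.45 in 36 and -0.44 in 35, and -0.50 to -0.42 with a library left out; 16 of 16 lay below 0 in every setting run. That of the ER chaperones (-0.28) was -0.24 in the 12 libraries and -0.34 to -0.20 with a library left out. Of 120 named genes in 22 settings, 6 values changed sign, all with a library left out: ATF4 (-0.17 to 0.074), CHORDC1 (-0.48 to 0.068), DNAJA1 (-0.99 to 0.35), HSP90AB1 (-0.29 to 0.013), HSPA8 (-0.67 to 0.081) and NFKB2 (-0.0015 to 0.30). A total of 26 values passed that had not, and 2608 kept their direction and side. Depth limits DERL3 and TXNIP, whose smallest groups hold 21 and 10 counts.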
